A study of Homo sapiens with 12 samples.

Results

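The 10 genes described here encode the condensin complexes and the type II topoisomerases of human cells. They were chosen by name, as the rows whose gene name equals SMC2, SMC4, NCAPD2, NCAPG, NCAPH, NCAPD3, NCAPG2, NCAPH2, TOP2A or TOP2B in both deposited tables. All 10 were listed, among 25914 genes. The tables came from RNA-seq of 12 libraries, in 4 groups of 3. HCT116, a colon cancer line, and RPE-1, an epithelial line of the retina immortalized with hTERT, both labelled wild-type in genotype, were each treated for 24 h with 10 µM Nutlin-3a or with the solvent DMSO alone. Nutlin-3a blocks the binding of MDM2 to p53, so that p53 accumulates.

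Beyond the authors' own comparisons of Nutlin-3a with DMSO, which were not used, the tables hold 1 value per gene, the base mean. The base mean is a mean of read counts after each library's count was divided by its size factor. Its values were the same in both tables (largest difference 0), so that it belongs to neither comparison alone, and which libraries it averages is not given in the sources used here. The levels below therefore describe pooled libraries. The effect of Nutlin-3a, the difference between HCT116 and RPE-1 and the spread between replicates cannot be read from them, and no test was possible. Reads per library are unknown, and the markers of each line could not be checked separately.

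Condensins are ring-shaped complexes that fold chromatin into compact mitotic chromosomes by extruding loops of DNA. Both forms share the ATPase pair SMC2 and SMC4. Condensin I adds the kleisin NCAPH and the HEAT-repeat subunits NCAPD2 and NCAPG, whereas condensin II adds NCAPH2, NCAPD3 and NCAPG2. Condensin II is found in the nucleus throughout the cell cycle, and condensin I reaches chromosomes after the nuclear envelope breaks down. Type II topoisomerases pass one DNA duplex through another and so untangle sister chromatids. TOP2A is made mainly in proliferating cells, and TOP2B is also made in cells that have left the cycle.

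Promoters of 4 members are shown first, because they belong to the condensin genes with the highest and the lowest base mean, NCAPD2 and NCAPG, and to both topoisomerases. The sequences are those of RefSeq (GRCh38.p14), 5′ to 3′ on the strand of the gene, and run from 250 bases before the start of transcription to 50 bases after it. The NCAPD2 promoter is at chr12:6493852-6494151 on the plus strand, that of NCAPG at chr4:17810729-17811028 on the plus strand, that of TOP2A at chr17:40417847-40418146 on the minus strand and that of TOP2B at chr3:25664858-25665157 on the minus strand. Capitals mark matches, on either strand, to TTTGAA (the core of the cell cycle genes homology region, CHR, to which the MuvB core of the DREAM complex binds), to CCAAT (the box bound by NF-Y) and to TTCCCGC or TTGGCGC (forms of the E2F site).
NCAPD2: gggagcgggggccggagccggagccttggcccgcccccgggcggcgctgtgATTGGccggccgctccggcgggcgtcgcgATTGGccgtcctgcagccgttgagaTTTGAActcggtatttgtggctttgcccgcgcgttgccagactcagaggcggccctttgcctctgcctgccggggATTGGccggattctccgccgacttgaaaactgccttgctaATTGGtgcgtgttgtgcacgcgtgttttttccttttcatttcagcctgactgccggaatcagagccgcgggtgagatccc
NCAPG: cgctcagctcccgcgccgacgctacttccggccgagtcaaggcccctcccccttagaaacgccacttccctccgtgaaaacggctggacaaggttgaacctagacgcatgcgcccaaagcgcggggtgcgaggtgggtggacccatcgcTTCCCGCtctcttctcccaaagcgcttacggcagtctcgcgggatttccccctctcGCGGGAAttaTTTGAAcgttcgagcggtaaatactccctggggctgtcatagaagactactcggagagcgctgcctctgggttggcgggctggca
TOP2A: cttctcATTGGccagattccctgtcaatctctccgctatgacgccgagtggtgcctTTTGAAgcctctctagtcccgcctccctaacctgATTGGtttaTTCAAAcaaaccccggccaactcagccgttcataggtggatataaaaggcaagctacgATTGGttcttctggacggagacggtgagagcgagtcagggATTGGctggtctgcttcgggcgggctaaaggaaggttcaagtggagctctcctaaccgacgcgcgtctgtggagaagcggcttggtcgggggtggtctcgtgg
TOP2B: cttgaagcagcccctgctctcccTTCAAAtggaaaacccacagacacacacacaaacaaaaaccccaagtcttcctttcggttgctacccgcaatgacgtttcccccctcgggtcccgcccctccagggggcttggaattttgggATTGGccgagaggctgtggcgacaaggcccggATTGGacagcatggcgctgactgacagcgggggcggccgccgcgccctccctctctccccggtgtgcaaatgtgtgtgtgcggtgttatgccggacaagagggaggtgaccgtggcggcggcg

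In the pooled libraries, every member had a base mean above the median of all listed genes, which was 149.8, and above the median of the 15758 protein-coding genes, which was 650.6. The median over the members was 1892. NCAPD2, a HEAT-repeat subunit of condensin I, was first with a base mean of 7541. NCAPG, the other HEAT-repeat subunit of the same complex, was last with 948.7. Both ends of the range lay within condensin I. Since base means grow with the length of the RNA, these values are given gene by gene, and genes are compared with each other per length further on.

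**Figure D1:**
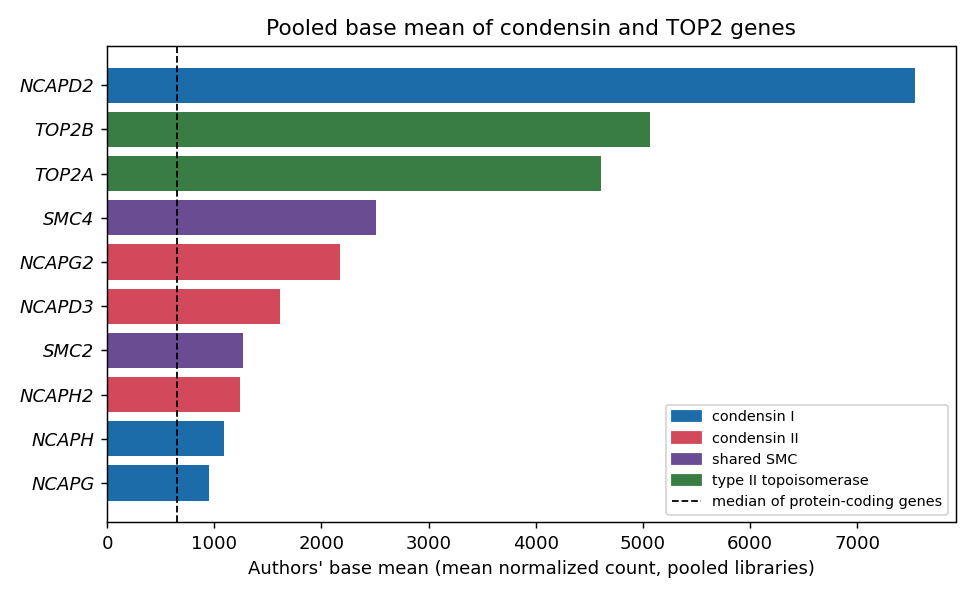
Bars give the authors' base mean of each of the 10 genes, coloured by class, on an axis that starts at 0; the dashed line is the median of protein-coding genes, 650.6. NCAPD2 stands at 7541, TOP2B and TOP2A follow at 5070 and 4611, and the other 7 genes lie between 948.7 and 2511, so that every bar reaches past the line.

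Among the subunits particular to condensin I, NCAPH, the kleisin that closes the ring, had a base mean of 1091. The base mean of NCAPD2 was higher than that of 97.6% of all listed genes, compared with 76.0% for NCAPH and 73.6% for NCAPG. Per kb of merged exons, NCAPD2 was 6.995 times NCAPH and 5.95 times NCAPG, and per kb of coding sequence it was 3.66 and 5.76 times these genes.

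Of the subunits particular to condensin II, NCAPG2, the counterpart of NCAPG, had a base mean of 2170, and NCAPD3, the counterpart of NCAPD2, had one of 1615. NCAPH2, the kleisin, had 1239. Per kb of merged exons, the highest and the lowest of the 3 differed by a factor of 3.54, compared with 6.995 in condensin I, and per kb of coding sequence by 1.90, compared with 5.76. These genes exceeded 86.8%, 82.3% and 78.1% of all listed genes, in the same order.

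SMC4 and SMC2, the ATPase subunits that both complexes need, had base means of 2511 and 1270. SMC4 was 1.57 times SMC2 per kb of merged exons and 1.84 times per kb of coding sequence. SMC4 exceeded 88.7% of the listed genes and SMC2 78.6%.

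The topoisomerases ranked just after NCAPD2 among the members. TOP2B had a base mean of 5070 and TOP2A one of 4611. They exceeded 95.5% and 94.8% of all listed genes.

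A longer RNA yields more reads at the same number of molecules, so levels of different genes were compared per kb of merged exons in GENCODE 44. On this scale NCAPD2 was again first, with 1166 base mean units per kb over 6470 bp. TOP2A followed with 723.4 over 6374 bp. SMC4 (307.6), NCAPG2 (305.4), NCAPH2 (277.8) and TOP2B (271.9) formed a middle range, and SMC2 (196.2), NCAPG (195.7) and NCAPH (166.6) a lower one. NCAPD3 was last with 86.4 over 18698 bp. By this measure, 9 of the 10 members lay above the median of protein-coding genes (120.3 per kb), the exception being NCAPD3.

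How length is defined changed this order. The merged exons of NCAPD3 and of TOP2B, 18698 and 18645 bp, are the longest of the set, although their coding lengths, 4494 and 4878 bp, are close to those of NCAPD2 (4203 bp) and TOP2A (4593 bp). Per kb of coding sequence, TOP2B had 1039 and TOP2A 1004, a ratio of 1.04, while per kb of merged exons the ratio of TOP2B to TOP2A was 0.376. Which of the topoisomerases had the higher level per length is therefore not settled by these values. NCAPD2 stayed first under each of the 3 lengths, with 1794 per kb of coding sequence and 1563 per kb of the longest transcript. Per kb of coding sequence, NCAPD3 (359.4), SMC2 (353.6) and NCAPG (311.6) lay below the median of protein-coding genes, which was 444.6. Per kb of the longest transcript, where that median was 167.7, only NCAPD3 lay below it, with 154.2.

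**Figure D2:**
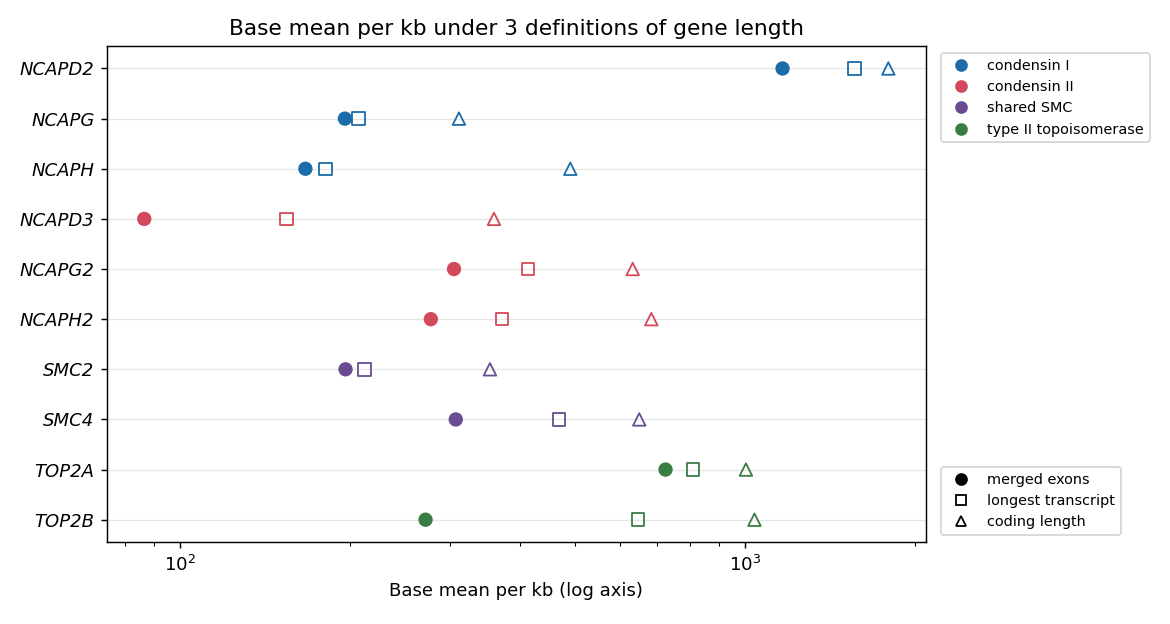
Each row is a gene and each symbol its base mean per kb on a log axis, for merged exons (filled circles), the longest transcript (squares) and the coding length (triangles), coloured by class. The symbols of NCAPD2 lie at 1166, 1563 and 1794, to the right of all others of the same shape, and those of TOP2B spread from 271.9 to 1039.

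Counterparts of condensin I and II were then compared per kb of merged exons. NCAPD2 was 13.5 times NCAPD3, and 4.99 times with the coding length. The other pairs had the opposite order, with NCAPG2 at 1.56 times NCAPG and NCAPH2 at 1.67 times NCAPH. Both kept that order under the coding length, with 2.03 and 1.39, and under the longest transcript, with 1.997 and 2.05. The median over the 3 subunits was 195.7 for condensin I and 277.8 for condensin II, a ratio of 0.704, whereas the sum over the subunits was higher for condensin I (1528 against 669.6) because of NCAPD2.

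Related complexes gave a scale for these levels. Cohesin, the SMC complex that holds sister chromatids together, had 5 listed genes with a median of 262.6 per kb, from SMC3 at 128.7 to RAD21 at 660.3. The SMC5/6 complex, which acts in DNA repair and replication, had 6 with a median of 200.6, from SMC6 at 105.2 to NSMCE2 at 353.8. The 10 members had a median of 274.9. With the coding length the order of these medians turned over, to 641.3 for the members, 843.0 for cohesin and 743.5 for SMC5/6, and with the longest transcript they were 392.2, 465.8 and 262.3. Other topoisomerases ranged, per kb of merged exons, from TOP3B at 133.0 to TOP1, the main type I enzyme, at 632.8. TOP1 lay between TOP2B and TOP2A on that scale. Per kb of the longest transcript TOP1, at 792.0, again lay between TOP2B (646.1) and TOP2A (809.6). At 2792 per kb of coding sequence, TOP1 lay above both of them. Among partners of condensin on chromosomes, again per kb of merged exons, MKI67, which coats mitotic chromosomes, had 611.1, AURKB, a mitotic kinase, 451.2, CDK1, the kinase that drives entry into mitosis, 216.7, KIF4A, a chromosome-bound kinesin, 212.8, and MCPH1, which restrains condensin II, 20.1. Per kb of coding sequence the order of these partners differed, with AURKB at 979.8, CDK1 at 950.8, MKI67 at 803.7, KIF4A at 263.3 and MCPH1 at 218.0. All 20 of the genes in these lists were listed.

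Promoters of 9 members were found in the RefSeq table, where NCAPH2 had no entry. Of several entries for a gene, the one at the start of the canonical GENCODE 44 transcript was used, and the distance between both starts was 0 in all 9 genes. TTTGAA was found in 8 of the 9 promoters, all but that of NCAPH, and in 15.2% of all 35116 promoters of this length. CCAAT was found in 5 of them, NCAPD2, NCAPD3, NCAPH, TOP2A and TOP2B, and in 34.6% of all promoters. E2F forms were found in NCAPD3 and NCAPG, and in 9.23% of all promoters. The further entries of NCAPD3, SMC2, SMC4 and TOP2B, at other starts, held none of these motifs. The shares over all promoters count every entry, 35116 for 27305 genes, whereas members were counted with the chosen entry only. A match is a match of letters and does not show binding.

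The motifs differed in position. In the NCAPG sequence shown above, TTTGAA began at −35 from the start, next to an E2F form on the opposite strand that began at −45, and another E2F form lay at −101. In NCAPD3, TTTGAA spanned the start itself, from −3 to 3, and CCAAT boxes on the opposite strand began at −110 and −45. The SMC2 promoter held TTTGAA on the opposite strand, also from −3 to 3, that of SMC4 on the opposite strand from −75, and that of NCAPG2 downstream of the start, at 36. In the TOP2A sequence, 4 CCAAT boxes on the opposite strand began at −244, −160, −93 and −53, and TTTGAA occurred at −194 and, on the opposite strand, at −151. NCAPD2 also held 4 CCAAT boxes on the opposite strand, at −199, −170, −70 and −30, with TTTGAA on the strand of the gene at −145. TOP2B held CCAAT at −105 and −73 and TTTGAA at −227, all on the opposite strand. When only the 150 bases from 100 before to 50 after the start were searched, TTTGAA was left in 5 members (NCAPD3, NCAPG, NCAPG2, SMC2 and SMC4), compared with 6.84% of all promoters. In the same window CCAAT was left in 4 members, compared with 21.3% of all promoters, and an E2F form in 1, NCAPG, compared with 4.98%. NCAPD2 and both topoisomerases held TTTGAA only farther upstream.

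**Figure D3:**
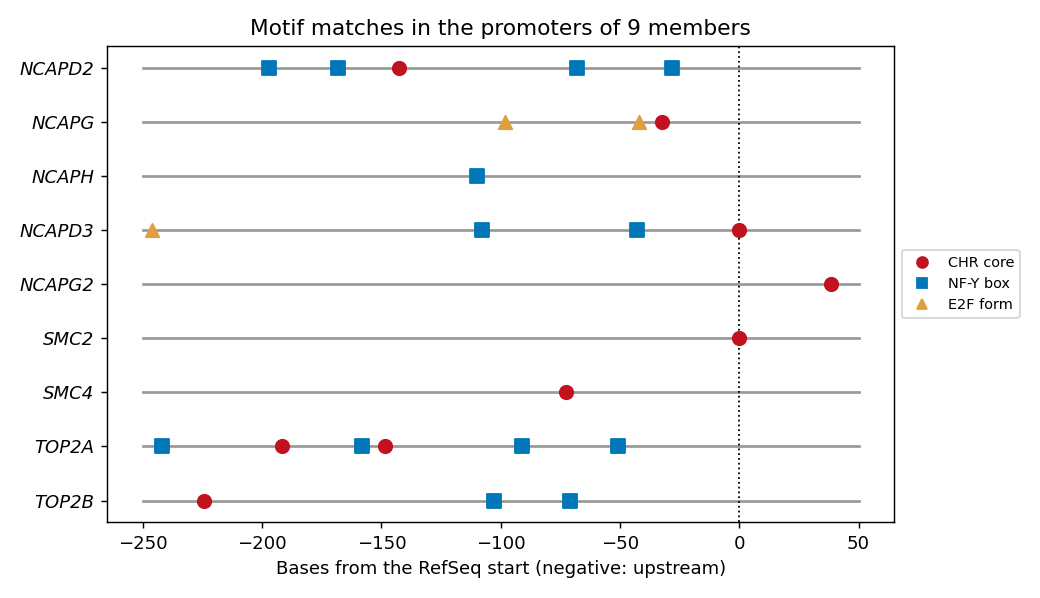
Each line is the promoter of 1 of 9 members, drawn to scale in bases from the RefSeq start (dotted, negative values upstream), with circles for the CHR core, squares for the NF-Y box (CCAAT) and triangles for E2F forms. CCAAT boxes are most numerous in TOP2A and NCAPD2, with 4 each, and the CHR core lies within 100 bases of the start in NCAPD3, NCAPG, NCAPG2, SMC2 and SMC4.

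Genes that start close to a member on the opposite strand were listed next, since promoters of such pairs are close to each other. With a limit of 2500 bp between the canonical starts, 6 members had such a neighbour and 4, NCAPH, NCAPG2, TOP2A and TOP2B, had none. The share of all listed genes with such a neighbour was not counted, so these counts cannot be read as a trait of the members. All 6 pairs were divergent by these starts, and 0 had overlapping 5′ ends. Taking the whole gene instead, with all of its annotated transcripts, NCAPD2 and MRPL51 overlapped by 486 bp, NCAPD3 and VPS26B by 834 bp and SMC4 and IFT80 by 607 bp. NCAPD3 was paired with VPS26B, a subunit of the retromer, at 704 bp, and their base means were 1615 and 1610. NCAPG was paired with DCAF16 at 222 bp (948.7 and 1241), NCAPH2 with LMF2 at 522 bp (1239 and 1622) and NCAPD2 with MRPL51, a mitochondrial ribosomal protein gene, at 840 bp (7541 and 3223). SMC4 was paired with IFT80, a gene of the cilium, at 425 bp, and IFT80 had 0.0998 times its base mean (250.7 and 2511). SMC2 was paired with its divergent long noncoding RNA, listed as SMC2-AS1, at 2454 bp, and that RNA had a base mean of 6.998 compared with 1270 for SMC2. Per kb of merged exons, NCAPD2 had 1166 and MRPL51 2322, the reverse of the order of their base means. NCAPD3 had 86.4 and VPS26B 249.6, NCAPG 195.7 and DCAF16 257.7, and NCAPH2 277.8 and LMF2 529.2. SMC4 had 307.6 and IFT80 35.4, and SMC2 had 196.2 and SMC2-AS1 0.815.

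By their coordinates in GRCh38, the members lie on 9 chromosomes. The genes of condensin I are NCAPD2 (ENSG00000010292) on chromosome 12 from 6493356 to 6531955, NCAPG (ENSG00000109805) on chromosome 4 from 17810979 to 17844865 and NCAPH (ENSG00000121152) on chromosome 2 from 96335766 to 96377091. Those of condensin II are NCAPD3 (ENSG00000151503) on chromosome 11 from 134150113 to 134225504, NCAPG2 (ENSG00000146918) on chromosome 7 from 158631169 to 158704804 and NCAPH2 (ENSG00000025770) on chromosome 22 from 50508224 to 50524780. SMC2 (ENSG00000136824) is on chromosome 9 from 104094260 to 104141419, and SMC4 (ENSG00000113810) on chromosome 3 from 160399274 to 160434954. TOP2A (ENSG00000131747) is on chromosome 17 from 40388525 to 40417896, and TOP2B (ENSG00000077097) shares chromosome 3 with SMC4, from 25597978 to 25664909. SMC4 overlaps TRIM59 (base mean 527.6) and IFT80, NCAPH2 overlaps SCO2 (479.9), NCAPD3 overlaps JAM3 (706.8) and NCAPG overlaps LCORL (451.5), all on the opposite strand. The overlap of NCAPG with LCORL spans 3679 bp and that of NCAPD3 with JAM3 1889 bp. The reads were counted by strand according to the methods, which separates such pairs. Genes that were not listed also overlap members on the same strand, where counting by strand does not separate reads. Among them are SCARNA10 in NCAPD2 (330 bp), ENSG00000272821 in NCAPH2 (855 bp) and MIR15B (98 bp) and MIR16-2 (81 bp) in SMC4. ENSG00000248710, also not listed, overlaps SMC4 by 35681 bp on the opposite strand. All these overlaps are of whole genes, introns included. NCAPD2 and NCAPG have listed pseudogenes, NCAPD2P1 with a base mean of 126.1 and NCAPGP2 with 3.72. By the methods only uniquely mapped reads were kept, so reads that fit a parent and its pseudogene equally well were left out of both. The base means of the pseudogenes do not show how many such reads were lost.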

How the data were processed

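RNA was sequenced from 12 libraries (HCT116 and RPE-1 cells, DMSO or 10 µM Nutlin-3a for 24 h, 3 per group), which were grouped by their titles. Per the labels, the authors used Trimmomatic 0.39, cutadapt 3.3, SAMtools 1.12, featureCounts 2.0.1 and DESeq2 1.32.0 with hg38. By the methods, uniquely mapped reads were counted on exons by strand with the annotation of Ensembl. The labels describe depletion of ribosomal RNA, the methods poly(A) selection. The signal taken from the deposited tables is the authors' average of size-factor normalized counts over pooled libraries. Which libraries entered it is not given in the sources used here. The other 5 columns of values hold the authors' log2 fold change, its standard error, the statistic and both p-values, and were not used.

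Base means were ranked among all 25914 listed genes and divided by gene length (GENCODE 44, same build, 25836 genes found). A longer gene model lowers a value per kb. Depth per library is unknown, so no interval was given. Members, lists and motifs were chosen with earlier results of these data known. The genes named were all 10 members and 4 lists, namely cohesin, the SMC5/6 complex, other topoisomerases and partners of condensin. Neighbouring and overlapping genes and pseudogenes were added after their values were seen. The search for TTTGAA was tested on 500 made-up promoters, each with a planted match on either strand, of which 500 were read correctly. CCAAT, the E2F forms and the positions from the start were not tested in this way. Alternatives were other sets of genes for the ranks, other lengths, a shorter promoter window and a shorter distance between starts. The planned protein identity was not run, as no protein table was used here. Python 3.11.15 with pandas 2.3.3, numpy 2.4.6 and matplotlib 3.10.9 was used.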

Additional observations from a re-analysis of the deposited data

How the results depend on the processing

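Of 50 values recomputed under alternatives, 40 stayed within 1.5 times the value reported and, for ratios, on the same side of 1. Another 7 moved farther and 3 ratios turned over. All shares of genes below a member were among the 40, and every larger shift fell among the ratios and counts. Shares this high cannot rise 1.5 times and would have to fall far to count as moved, so their place among the 40 says little. The share below NCAPG, for example, went from 73.6% of all listed genes to 58.7% of protein-coding genes and still counted as stable. The median share of listed genes below a member was 84.5%, compared with 75.7% among protein-coding genes and 80.7% among genes with a base mean of at least 10. The ratio of medians of condensin I to condensin II per kb was 0.704 and stayed below 1 with the coding length (0.775) and the longest transcript (0.557). With the coding length, the ratios that turned over were TOP2B to TOP2A (1.04), NCAPH to NCAPG (1.57) and NCAPG2 to NCAPH2 (0.927). The change of length itself makes these shifts. With the coding length, NCAPD2 fell to 3.66 times NCAPH and 4.99 times NCAPD3, NCAPG2 and NCAPH2 to 1.76 and 1.90 times NCAPD3, and with the longest transcript TOP2B rose to 0.798 times TOP2A. In the window of 150 bases, TTTGAA was left in 5 members and E2F forms in 1, shifts that the smaller window brings by construction. With a limit of 1000 bp, 5 members kept a neighbour on the opposite strand. No paired analysis was possible because the values used are pooled over libraries, so that leaving out single libraries was not possible either, and no count model or other normalization was run. Without reads per library, depth sets no limit that could be stated.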
